A study of Homo sapiens with 11 samples.

Results

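Vimentin mRNA was lower in H1299 cells carrying p53 R273H than in cells carrying p53 R175H on the proline form of codon 72, and N-cadherin mRNA was higher. The genes described are 10 regulators and markers of the epithelial-mesenchymal state, VIM, CDH1, CDH2, ZEB1, ZEB2, SNAI1, SNAI2, TWIST1, PKP3 and EPCAM, chosen by gene symbol out of 45965 genes in the count table. Each symbol was carried by a single row, so 10 rows were taken. H1299 is an established line of human lung carcinoma cells that lack native p53 protein. All 4 groups were made from it by transfection with 5 µg of construct DNA followed by selection in neomycin at 800 µg/ml for 14 days. The constructs encoded p53 with the hotspot mutation R175H or R273H, each on the proline (P72) or the arginine (R72) form of the common codon 72 polymorphism, so every group carried a mutant p53 and none was without it. R175H P72 and R175H R72 had 3 libraries each, R273H P72 had 4 and R273H R72 had 1. The promoter of the construct, and whether a line was a clone or a pool, could not be taken from the labels. Nothing in the labels says that replicates were separate cultures, so p-values measure only the spread between these libraries, which may be technical.

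Libraries were made by 3′ tag sequencing of total RNA, in which each read is a tag near the end of a transcript. They held 8346926 to 12829560 counts. Levels are CPM, the share of a library's counts on a common scale, adjusted by TMM, which evens out differences in library composition. The labels call 2 sets of libraries batches without saying what they are: batch b1 took in R273H P72 replicates 2, 3 and 4 with R175H R72 replicate 1, and the other 7 libraries were b2. Tags near the 3′ end do not read the mutated codons, so they do not check which mutant a library carried. KRT18 and KRT8, keratins of simple epithelium, averaged 850.1 and 274 CPM, while 5 genes of differentiated lung epithelium (SFTPA1, SFTPC, SFTPD, SCGB1A1 and MUC5B) had no count in any library. In bulk RNA, fewer cells that express a gene and less of its RNA per cell cannot be told apart.

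In the epithelial-mesenchymal transition, cells held together by E-cadherin lose that contact and take on a motile, vimentin-rich form with N-cadherin at the surface. The transcription factors of the Snail, ZEB and Twist families drive it by repressing epithelial genes, for which Snail and ZEB proteins bind E-box sequences such as CAGGTG. ZEB proteins and the miR-200 family of microRNAs repress each other, and mutant p53 has been linked to this program in carcinoma cells.

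The promoters of VIM and ZEB1 are shown because both genes passed the test between groups below and because E-boxes are the sequence that Snail and ZEB proteins read. Each is the 250 bases before the gene's RefSeq start on GRCh38.p14, read on the gene's strand, at chr10:17227991-17228240 (+) for VIM and chr10:31318167-31318416 (+) for ZEB1. Capitals mark CAGGTG or CACCTG, the same hexamer read on either strand.

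VIM promoter: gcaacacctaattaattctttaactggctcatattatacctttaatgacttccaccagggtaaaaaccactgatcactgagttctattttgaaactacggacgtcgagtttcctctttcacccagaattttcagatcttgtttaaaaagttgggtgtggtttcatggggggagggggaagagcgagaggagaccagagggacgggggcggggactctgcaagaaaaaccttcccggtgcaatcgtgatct

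ZEB1 promoter: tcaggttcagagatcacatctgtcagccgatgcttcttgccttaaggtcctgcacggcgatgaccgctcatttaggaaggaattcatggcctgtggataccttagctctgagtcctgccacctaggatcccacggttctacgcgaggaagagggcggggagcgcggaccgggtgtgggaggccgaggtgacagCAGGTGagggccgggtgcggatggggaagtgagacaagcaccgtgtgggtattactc

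The VIM stretch held neither hexamer and no match to CANNTG, the general E-box, which includes both hexamers and reads the same on both strands. The ZEB1 stretch held 1 CAGGTG, whose first base lies at -57 from the start, and 2 matches to CANNTG, the hexamer among them. Of 35116 promoter stretches of the same length, 17.5% held at least 1 CAGGTG or CACCTG, 61.8% at least 1 CANNTG and 28.3% at least 2. Promoters of 4 of the 10 genes (VIM, CDH2, ZEB1 and ZEB2) were matched in the RefSeq table. CDH2 also passed the test between groups. Its stretch, not shown, held neither hexamer and no CANNTG, and all 250 bases lay in annotated exons of the gene.

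The mature miR-200 family is shown because its seeds, bases 2 to 8 in capitals, have more matches in the 3′ untranslated regions of ZEB1 and ZEB2 than in those of the other 8 genes. Sequences are from RefSeq. The first 3 share one seed and the last 2 the other.

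hsa-miR-200b-3p: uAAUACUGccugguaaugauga

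hsa-miR-200c-3p: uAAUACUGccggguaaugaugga

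hsa-miR-429: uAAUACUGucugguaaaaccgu

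hsa-miR-200a-3p: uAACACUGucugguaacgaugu

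hsa-miR-141-3p: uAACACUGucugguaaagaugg

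The match of the first seed, CAGTATT on the mRNA strand, occurred 6 times in the longest annotated 3′ untranslated region of ZEB1 (6065 nt) and 5 times in that of ZEB2 (5370 nt). Of 19477 genes, 0.0154% and 0.0359% held at least as many. SNAI2 held 1 such match and the other 7 genes none. The match of the second seed, CAGTGTT, occurred 8 times in ZEB1 and 4 times in ZEB2, and 0.0103% and 0.308% of genes held at least as many, with none in the other 8 genes. The counts are not corrected for the length of the region. Mature microRNAs are not captured by these libraries, and the 5 hairpin rows of the family (MIR200A, MIR200B, MIR200C, MIR141 and MIR429) had no count in any library, which for rows of this kind says nothing of the mature forms.

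The mesenchymal genes were expressed and the defining epithelial ones were at the edge of detection in every group. VIM, the intermediate filament of mesenchymal cells, lies on chromosome 10 from 17228259 to 17237593 (hg38, + strand) and ranged from 755 to 1827 CPM. CDH2, N-cadherin (chromosome 18, 27950966 to 28177446, - strand), ranged from 111 to 184 CPM. CDH1, E-cadherin, the adhesion molecule of epithelial junctions, had 6 counts over all 11 libraries, 0 or 1 in each, and 5 libraries had none. Its pooled level was bounded at 0.0200 to 0.119 CPM by a 95% Poisson interval, which covers counting error only. EPCAM, an epithelial surface adhesion molecule, had 44 counts in all and 0 to 0.709 CPM per library.

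Among the transcription factors, ZEB1 (chromosome 10, 31318495 to 31529814, + strand) was at 29.01 to 49.01 CPM. ZEB2 (chromosome 2, 144364364 to 144524583, - strand) was at 9.24 to 15.7 CPM and TWIST1 (chromosome 7, 19020991 to 19117672, - strand) at 7.62 to 12.6 CPM. SNAI1, which encodes Snail, had 50 counts in all, and SNAI2, which encodes Slug, had 22, with 0 to 0.532 CPM per library. PKP3, plakophilin-3, a desmosomal plaque protein, is the member with an epithelial role that was clearly measured, at 26.1 to 46.6 CPM (chromosome 11, 392614 to 404908, + strand). H1299 therefore had VIM, CDH2, ZEB1, ZEB2, TWIST1 and PKP3 transcripts in all 11 libraries, while differences in CDH1, EPCAM and SNAI2 were not detectable at this depth. Transcripts on the opposite strand overlap exons of some of these genes, and the labels do not say if the counting kept strands apart. ZEB1-AS1 had 7.20% as many counts as ZEB1, ZEB2-AS1 1.70% of ZEB2 and VIM-AS1 0.139% of VIM.

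**Figure D1:**
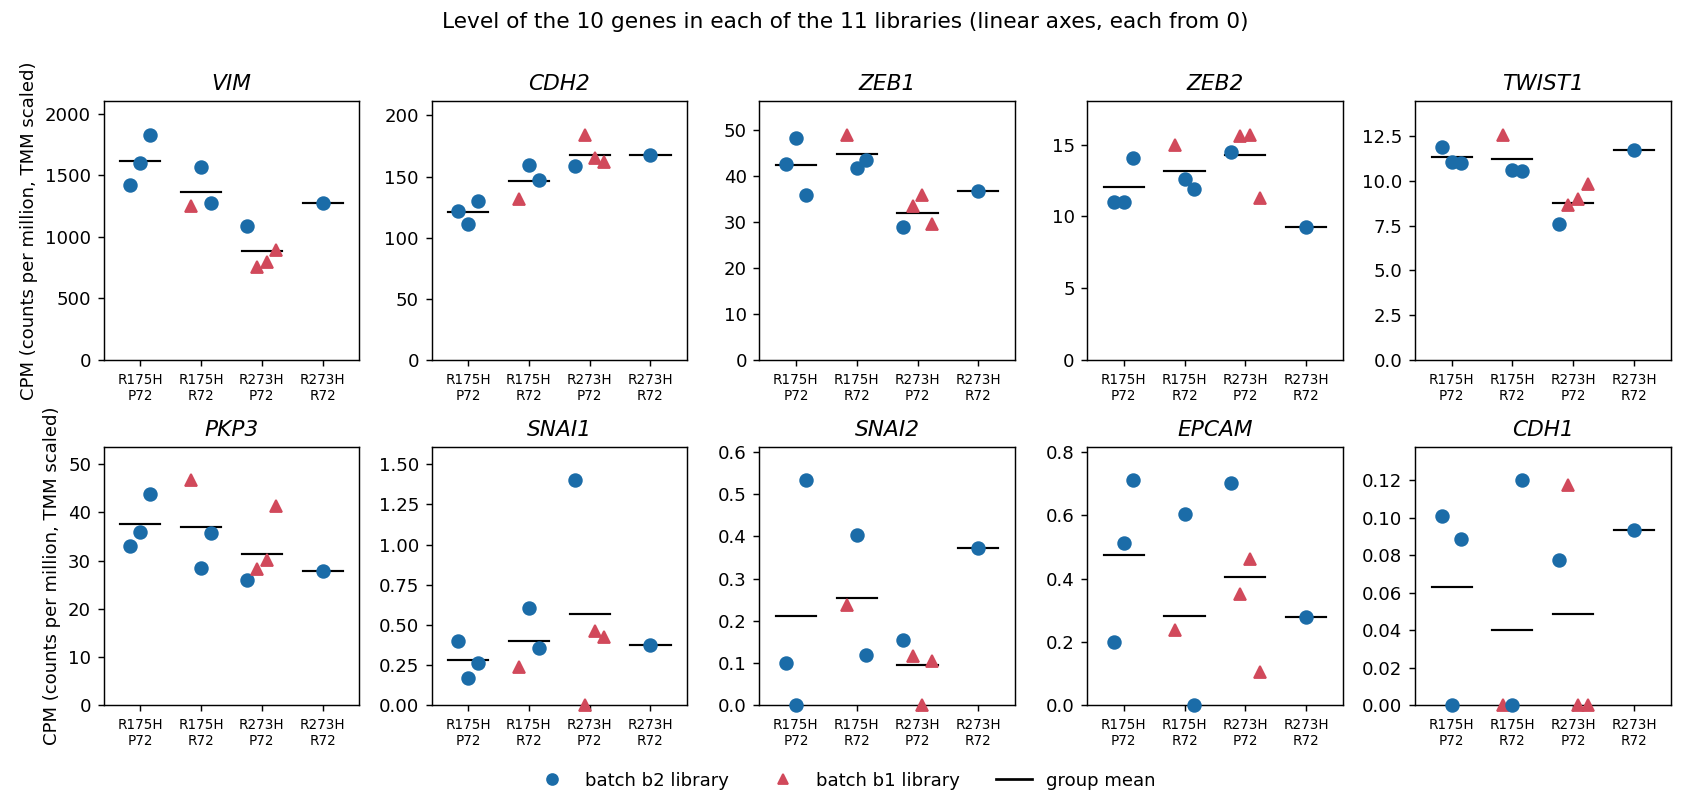
Level of each of the 10 genes in each library, in CPM on linear axes that start at 0, by group (3 libraries each for R175H, 4 for R273H P72 and 1 for R273H R72). Each point is 1 library, its marker shows the batch, and the bars are group means. The R273H P72 libraries hold the 4 lowest VIM values, and CDH1 is at or below 0.120 CPM in every library.

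Of the 10 genes, 7 passed the filter on low counts and entered the tests, as did 16324 genes in all. CDH1, EPCAM and SNAI2 did not pass. SNAI1 passed only through 1 library, R273H P72 replicate 1, with 18 of its 50 counts (1.40 CPM), against 0 to 0.605 CPM in the other 10, so its fold changes rest on that library. For R273H over R175H on P72 the log2 fold change of SNAI1 was 2.11 (SE 0.90, edgeR adjusted p = 0.113). The remaining 6 were tested on 1140 to 139543 counts each. Tests are edgeR's quasi-likelihood tests with Benjamini-Hochberg adjustment over all genes tested, at a threshold of 0.05. Fold changes are estimated with the batch held constant, so they can differ from the ratio of the group means.

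Across the 4 groups, VIM (adjusted p = 0.004), ZEB1 (0.00862) and CDH2 (0.0101) differed in edgeR's F test for any difference. These are 3 of the 7 members that entered the test, which called 10.7% of all genes tested. PKP3 (adjusted p = 0.075), TWIST1 (0.0906) and ZEB2 (0.474) did not pass. Each of the 3 calls was lost without at least 1 library. Without R175H R72 replicate 1 the adjusted p was 0.0706 for VIM and 0.125 for ZEB1, without R273H P72 replicate 1 it was 0.0937 for ZEB1, and without R175H P72 replicate 2 it was 0.0582 for CDH2. PKP3 passed without R273H P72 replicate 4 (adjusted p = 0.0237) or without R273H R72 replicate 3 (0.0487). It also passed with no filter, with DESeq2, and with the replicate 4 libraries left out together.

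The hotspot comparison on P72 set 4 R273H libraries against 3 R175H libraries. VIM, ZEB1, TWIST1 and PKP3 were lower with R273H, and CDH2 was higher, so the 2 mesenchymal markers moved in opposite directions. These were 5 of the 7 tested members, out of 10. The background was 14.6% of all genes tested, 6.95% called higher and 7.6% lower. The members were chosen with earlier results of these data known, so the shares are given side by side only. Only 1 of the 4 R273H P72 libraries was in b2, and no R175H P72 library was in b1. The batch term therefore rests on R273H P72 and R175H R72, the only groups with libraries of both batches. In R175H R72 the only b1 library was replicate 1. The 4 values given for R273H P72 below start with the b2 library.

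VIM was at 1423, 1600.1 and 1827 CPM in the R175H P72 libraries and at 1088, 755, 793 and 893 CPM in the R273H P72 libraries. The groups did not overlap, and the b2 library was the highest of the R273H group. In the model, b1 libraries were estimated at 0.31 below b2 for VIM on the log2 scale (edgeR adjusted p = 0.0645). The CPM values are not adjusted for this, and without the batch term the log2 fold change was -0.87. VIM fell by 0.65 on the log2 scale (SE 0.12, 1.57-fold lower, edgeR adjusted p = 0.00129), lower in 4 of 4 libraries than in any R175H P72 library. It was called in all 11 fits that left out 1 library and in all 11 other alternatives, with log2 fold changes from -0.87 to -0.51. Within b2 alone, 1 library against 3, the log2 fold change was -0.57 (adjusted p = 0.044).

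CDH2 was at 122, 111 and 130.1 CPM with R175H and at 159, 184, 165 and 162 CPM with R273H. Again the groups did not overlap, now with every R273H library above. CDH2 rose by 0.50 on the log2 scale (SE 0.11, 1.42-fold higher, edgeR adjusted p = 0.0035). The call held without each library in turn, and within b2 alone the log2 fold change was 0.39 (adjusted p = 0.0701).

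ZEB1, a zinc finger repressor of CDH1, was at 42.7, 48.3 and 36.00 CPM with R175H and at 29.01, 33.4, 35.99 and 29.7 CPM with R273H. The groups touched without crossing. ZEB1 fell by 0.55 on the log2 scale (SE 0.13, 1.46-fold lower, edgeR adjusted p = 0.00676). The call was lost without R273H P72 replicate 1, the b2 library (adjusted p = 0.0964), and within b2 alone, where the log2 fold change was -0.55 (adjusted p = 0.0643).

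TWIST1, a basic helix-loop-helix factor, was at 11.9, 11.1 and 10.996 CPM with R175H and at 7.62, 8.68, 8.997 and 9.83 CPM with R273H. Every R273H library was below every R175H library, at levels of about 10 CPM. TWIST1 fell by 0.56 on the log2 scale (SE 0.18, 1.48-fold lower, edgeR adjusted p = 0.0329). That call depended on single libraries and on the processing. It was lost in 4 of the 11 fits that left out 1 library (without R175H P72 replicate 1 or 2, R175H R72 replicate 1 or R273H P72 replicate 1, adjusted p 0.0609 to 0.237), without the batch term (0.0948), with no filter, with DESeq2 and, within b2 alone, at a log2 fold change of -0.57 (0.15).

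PKP3 was at 33.1, 35.9 and 43.9 CPM with R175H and at 26.1, 28.3, 30.1 and 41.3 CPM with R273H. These groups overlapped, through R273H P72 replicate 4. PKP3 fell by 0.60 on the log2 scale (SE 0.17, 1.51-fold lower, edgeR adjusted p = 0.0235) once the batch was in the model, in which b1 libraries were estimated at 0.44 above b2 on the log2 scale (adjusted p = 0.0633). Without the batch term the log2 fold change was -0.26 (adjusted p = 0.366), and with a correction for the GC content of the 3′ end it was -0.23 (0.397). It was also lost without R175H P72 replicate 4 (0.0549), R175H R72 replicate 1 (0.146) or R273H P72 replicate 1 (0.0984), and within b2 alone the log2 fold change was -0.53 (0.0993).

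ZEB2, the second ZEB repressor, was at 10.99, 10.99 and 14.1 CPM with R175H and at 14.5, 15.6, 15.7 and 11.3 CPM with R273H. The groups overlapped, and the log2 fold change was 0.16 (SE 0.19, edgeR adjusted p = 0.617, 95% interval -0.20 to 0.53). The direction was not settled, since it was -0.05 without R273H P72 replicate 1. Of the 7 tested genes, 4 had groups that did not overlap, as had 28.1% of all genes tested. The median log2 fold change of the 7 tested genes was -0.55, and -0.56 without SNAI1, beside 0.00 over all genes tested. The members were chosen with earlier results of these data known, and the medians were not compared by a test.

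**Figure D2:**
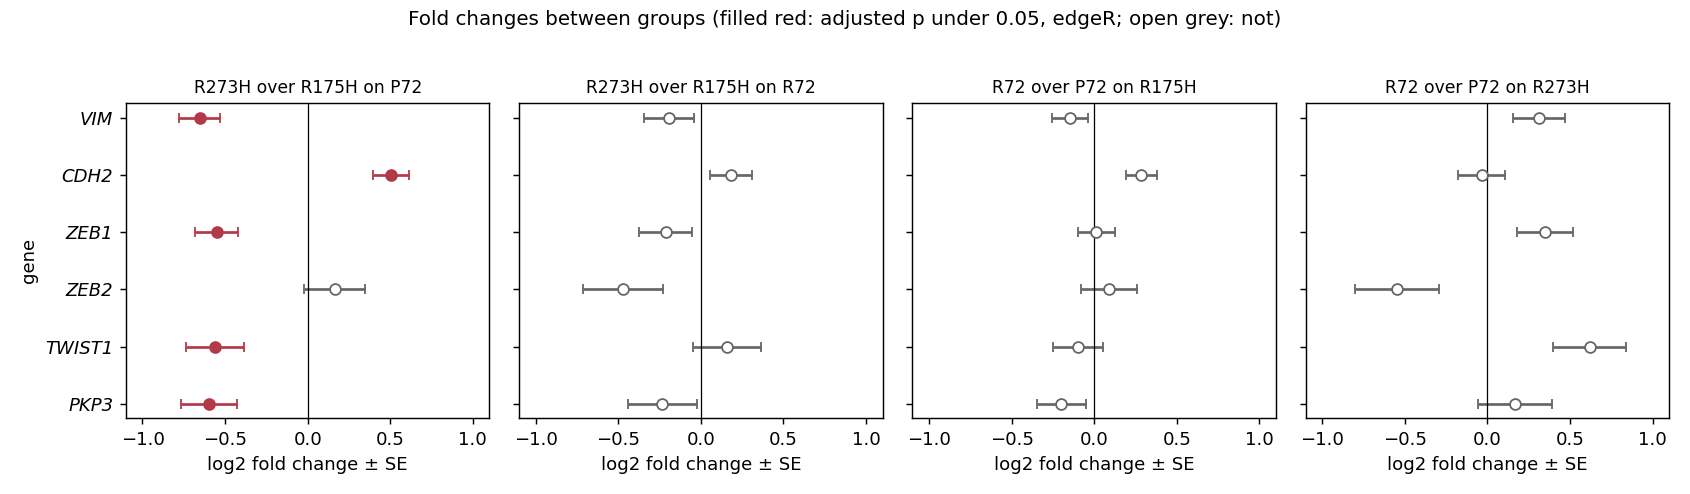
log2 fold change with its standard error (x axis) for VIM, CDH2, ZEB1, ZEB2, TWIST1 and PKP3 (y axis) in the 4 pairwise comparisons of groups, from edgeR with batch in the model. Filled points passed an adjusted p of 0.05. They occur in R273H over R175H on P72, at -0.65 for VIM, 0.50 for CDH2, -0.55 for ZEB1, -0.56 for TWIST1 and -0.60 for PKP3.

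**Figure D3:**
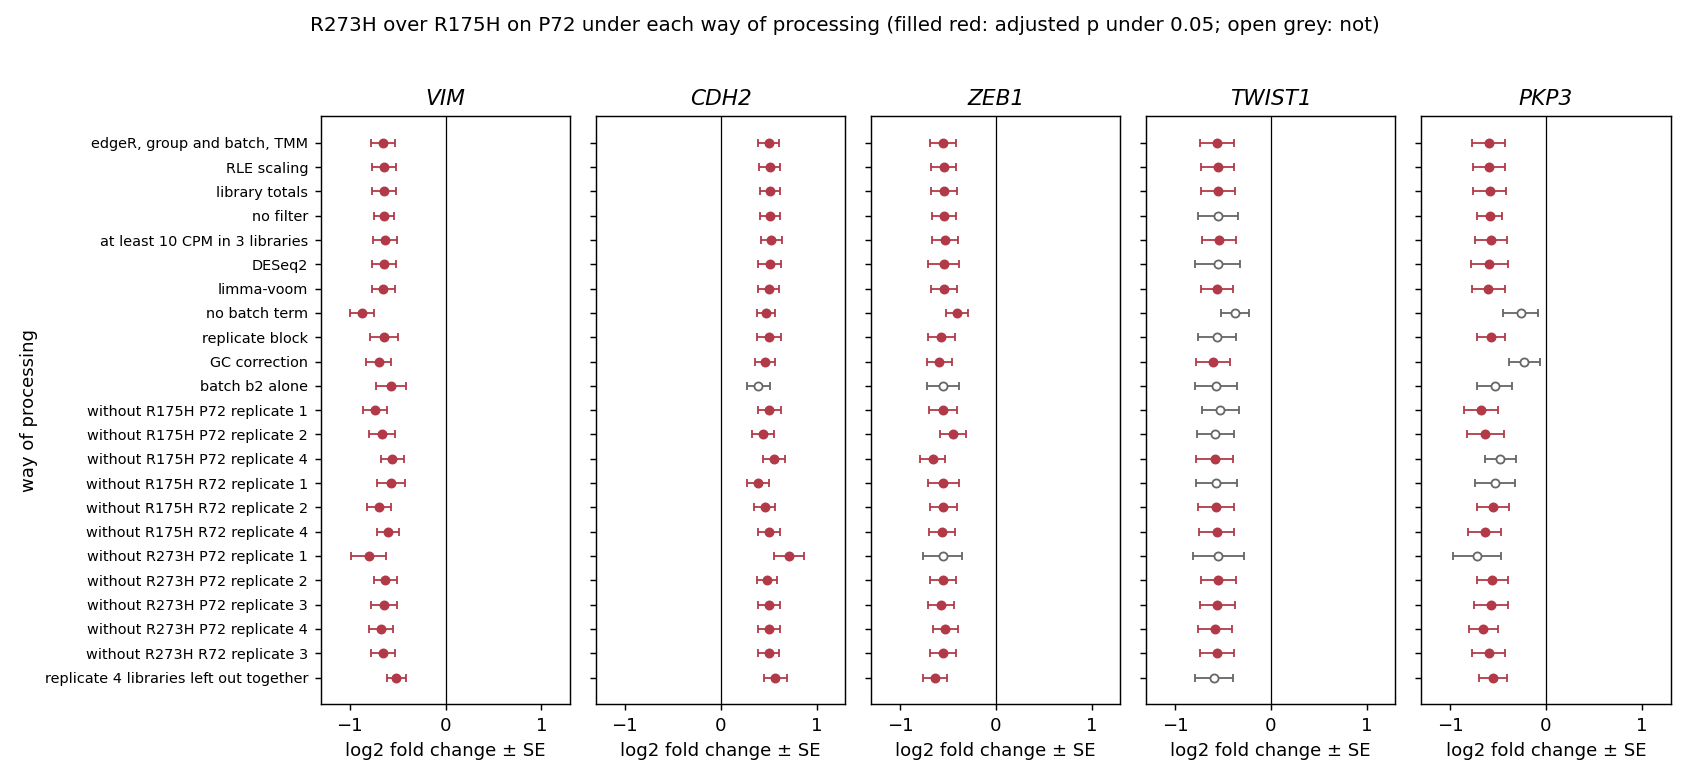
log2 fold change with its standard error (x axis) of the 5 called genes for R273H over R175H on P72, under each way of processing and with each library left out (y axis). Filled points passed an adjusted p of 0.05. The sign stayed the same for all 5 genes in every fit shown, and VIM was filled throughout, while TWIST1 was open in 10 fits.

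The same hotspot comparison on R72 set the single R273H R72 library against 3 R175H R72 libraries, so the spread within R273H R72 is taken from the other groups. None of the genes was called by edgeR, DESeq2 or limma-voom, and none had an unadjusted p under 0.05 in edgeR. The background was 0.0429% of all genes called. VIM was at 1277 CPM in that library and at 1247, 1563 and 1270.3 CPM in the R175H R72 libraries, inside their range. Its log2 fold change was -0.19 (SE 0.15, 95% interval -0.49 to 0.10). CDH2 was at 167 CPM against 132, 159 and 147 CPM, above all 3, with a log2 fold change of 0.18 (SE 0.13, 95% interval -0.07 to 0.43). ZEB1 was at 36.9 CPM against 49.01, 41.8 and 43.6 CPM, below all 3, with a log2 fold change of -0.21 (SE 0.16). ZEB2 at 9.24 CPM was below 14.95, 12.6 and 11.9 CPM, TWIST1 at 11.8 CPM lay within 12.6, 10.6 and 10.6 CPM, and PKP3 at 27.9 CPM was just below 46.6, 28.5 and 35.6 CPM. For 45.6% of all genes tested the single library likewise lay outside the 3 others.

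Codon 72 on the R175H mutant compared 3 R72 with 3 P72 libraries. No member was called by edgeR, DESeq2 or limma-voom, beside a background of 1.13%, and 1 had an unadjusted p under 0.05. This was CDH2, at 132, 159 and 147 CPM with R72 and 122, 111 and 130.1 CPM with P72. The groups did not overlap, as was so for 13% of all genes tested, and the log2 fold change was 0.28 (SE 0.09, 95% interval 0.10 to 0.47, edgeR adjusted p = 0.152). VIM overlapped between the 2 groups, with means of 1360.1 ± 176 CPM (SD, n = 3) for R72 and 1617 ± 202 CPM (SD, n = 3) for P72. Its log2 fold change was -0.15 (SE 0.11, 95% interval -0.36 to 0.06). ZEB1 averaged 44.8 ± 3.74 and 42.3 ± 6.16 CPM (SD, n = 3 each), TWIST1 11.2 ± 1.16 and 11.3 ± 0.497 CPM, ZEB2 13.1 ± 1.60 and 12.03 ± 1.80 CPM, and PKP3 36.9 ± 9.12 and 37.6 ± 5.62 CPM, in R72 and P72. For these 4 genes the difference was within the spread between libraries.

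Codon 72 on the R273H mutant set the 1 R72 library against 4 P72 libraries. No member was called by edgeR, DESeq2 or limma-voom, and edgeR called 0% of all genes, with 1265 genes at an unadjusted p under 0.05. Among the members, TWIST1 and ZEB2 were below that level. TWIST1 was at 11.8 CPM with R72 and at 7.62 to 9.83 CPM with P72, with a log2 fold change of 0.62 (SE 0.22, edgeR adjusted p = 0.441). ZEB2 was at 9.24 CPM with R72 and at 11.3 to 15.7 CPM with P72, with a log2 fold change of -0.55 (SE 0.25, edgeR adjusted p = 0.629). VIM at 1277 CPM and ZEB1 at 36.9 CPM were above all 4 P72 libraries (highest 1088 and 35.99 CPM), with log2 fold changes of 0.31 (SE 0.16) and 0.35 (SE 0.17). CDH2 at 167 CPM lay among its 4 P72 values, and PKP3 at 27.9 CPM did too. For 47.2% of all genes tested the R72 library lay outside the P72 libraries.

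Whether codon 72 acted differently on the 2 mutants was tested directly as the R72 effect on R273H minus that on R175H. No member was called by edgeR, DESeq2 or limma-voom, beside a background of 0.0306%, and 2 had an unadjusted p under 0.05 in edgeR. TWIST1 had a difference of 0.72 on the log2 scale (SE 0.29, edgeR adjusted p = 0.385) and VIM of 0.46 (SE 0.21, adjusted p = 0.444). The others were 0.34 for ZEB1 (SE 0.22), -0.32 for CDH2 (SE 0.18), -0.63 for ZEB2 (SE 0.32) and 0.36 for PKP3 (SE 0.29). The 95% interval for CDH2 ran from -0.68 to 0.04. The same contrast is the hotspot difference on R72 minus that on P72, so the absence of calls on R72 does not show that the hotspot difference on R72 was smaller.

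In the order of the group means, VIM ran from R175H P72 (1617 ± 202 CPM, SD, n = 3) through R175H R72 (1360.1 ± 176, n = 3) and R273H R72 (1277, 1 library) to R273H P72 (882 ± 149, n = 4). Neighbours at the top of that order overlapped, while R273H P72 lay apart from the 7 other libraries, in CPM values that are not adjusted for batch. CDH2 ran from R175H P72 (121 ± 9.63, n = 3) through R175H R72 (146 ± 13.6, n = 3) to R273H R72 (167) and R273H P72 (168 ± 11.3, n = 4), and only R175H P72 lay apart from the 8 others. ZEB1 was lowest in R273H P72 (32.0 ± 3.28, n = 4). TWIST1 was also lowest in R273H P72 (8.78 ± 0.913, n = 4), below all 7 other libraries.

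The genes whose levels followed each of the called genes most closely over the 11 libraries were found by the root mean square difference of centred log2 CPM, among 8968 genes at 10 CPM or more. VIM, whose own SD was 0.40, lay nearest to CLIC4 (0.0746), a chloride intracellular channel protein, then IFT43 (0.0981) and MYL12A (0.104), a myosin regulatory light chain. CDH2, with an SD of 0.21, lay nearest to LAPTM4B (0.0467), ITGB5 (0.0506), the integrin beta 5 chain, and ATP6AP2 (0.0578). ZEB1, with an SD of 0.24, lay nearest to RPL41 (0.0806), PNPLA2 (0.0925) and IRAK1 (0.0987). These are distances in these libraries, chosen as the smallest of many, and libraries share depth and batch.

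Other genes of the program did not move as 1 block with the hotspot on P72. Of 219 genes in 8 lists, 159 were tested and 31 were called, 15 higher and 16 lower with R273H, or 19.5% beside the 14.6% over all genes. Their median log2 fold change was -0.04.

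Called epithelial genes were found in both directions. In the epithelial junction list 3 of 22 tested genes were called, all higher with R273H, a share close to the background, and the list's median log2 fold change was 0.07. DSC2, desmocollin-2, averaged 17.7 CPM with R273H and 11.6 CPM with R175H (log2 fold change 0.70, SE 0.16, edgeR adjusted p = 0.00404). F11R, the tight junction protein JAM-A, averaged 41.3 and 26.4 CPM (0.64, SE 0.14, adjusted p = 0.00285), and DSG2, desmoglein-2, 59.6 and 48.5 CPM (0.33, SE 0.11, adjusted p = 0.0465). The desmosomal plaque genes DSP, PKP2 and JUP of the same list, chosen after their values were seen, were not called, with log2 fold changes of 0.29, 0.08 and -0.41. Of 13 genes of the epithelial cytoskeleton and surface, LLGL2, a polarity protein, rose by 0.69 and AP1M2, an epithelial adaptor subunit, by 0.45, while EZR, which links actin to the membrane, fell by 0.37. LLGL2 averaged 9.88 CPM with R273H and 8.06 CPM with R175H, AP1M2 20.6 and 16.6 CPM, and EZR 445 and 517 CPM. The median of the cytoskeleton and surface list was -0.22, with 5 of 13 values above 0. None of 6 epithelial regulators was called by edgeR, with KLF4 at the smallest p (log2 fold change 0.52, adjusted p = 0.117). The group means of KLF4 went the other way, at 6.25 CPM with R273H and 6.91 CPM with R175H, since the fold change holds batch constant.

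The mesenchymal genes were split. In the cytoskeleton and surface list 3 of 20 rose and 1 fell. CALD1, caldesmon, averaged 29.9 CPM with R273H and 17.1 CPM with R175H (log2 fold change 0.88, SE 0.15, edgeR adjusted p = 0.000636), and ITGAV, the integrin alpha V chain, rose by 0.63. FSCN1, the actin bundling protein fascin, averaged 406 and 676 CPM and fell by 0.79 (SE 0.11, adjusted p = 0.00011). Of 20 matrix genes, 3 rose and 6 fell. TNC, tenascin C, fell by 1.05 and LOXL1, a lysyl oxidase, by 0.84. The median of both mesenchymal lists was -0.01.

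The lists of further transcription factors and of inducing signals had medians of opposite sign, -0.20 and 0.21. Positive values were found for 4 of 20 and 22 of 27 genes. The list of cofactors and turnover factors had a median of -0.15, with 10 of 31 values positive. Of 20 further transcription factors of the transition 5 were called, all lower with R273H. HMGA1, a chromatin protein, averaged 4094 CPM with R273H and 6761 CPM with R175H (log2 fold change -0.90, SE 0.12, edgeR adjusted p = 6.78e-05). HMGA2 fell by 0.59 and SOX4 by 0.79. SOX4 averaged 7.62 CPM with R273H and 9.60 CPM with R175H. Of 31 cofactors and turnover factors of Snail, Slug, ZEB and Twist, 2 rose and 2 fell, among them FBXO22, a ubiquitin ligase subunit, which rose by 0.52, PSMD14, a proteasomal deubiquitinase, which fell by 0.57, and EHMT2, a histone methyltransferase, which fell by 0.40. Of 27 genes of the inducing signals, FGFR1, a growth factor receptor, rose by 0.67 and HES1, a Notch target, by 0.77. SMAD2, a TGF-beta effector, fell by 0.32. HES1 averaged 8.59 CPM with R273H and 6.93 CPM with R175H, FGFR1 151 and 112 CPM, and SMAD2 78.6 and 96.6 CPM. For HES1, SOX4 and LLGL2 the means lay closer together than the fold changes, which hold batch constant. For list genes no fit within b2 alone or with a library left out is given.

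**Figure D4:**
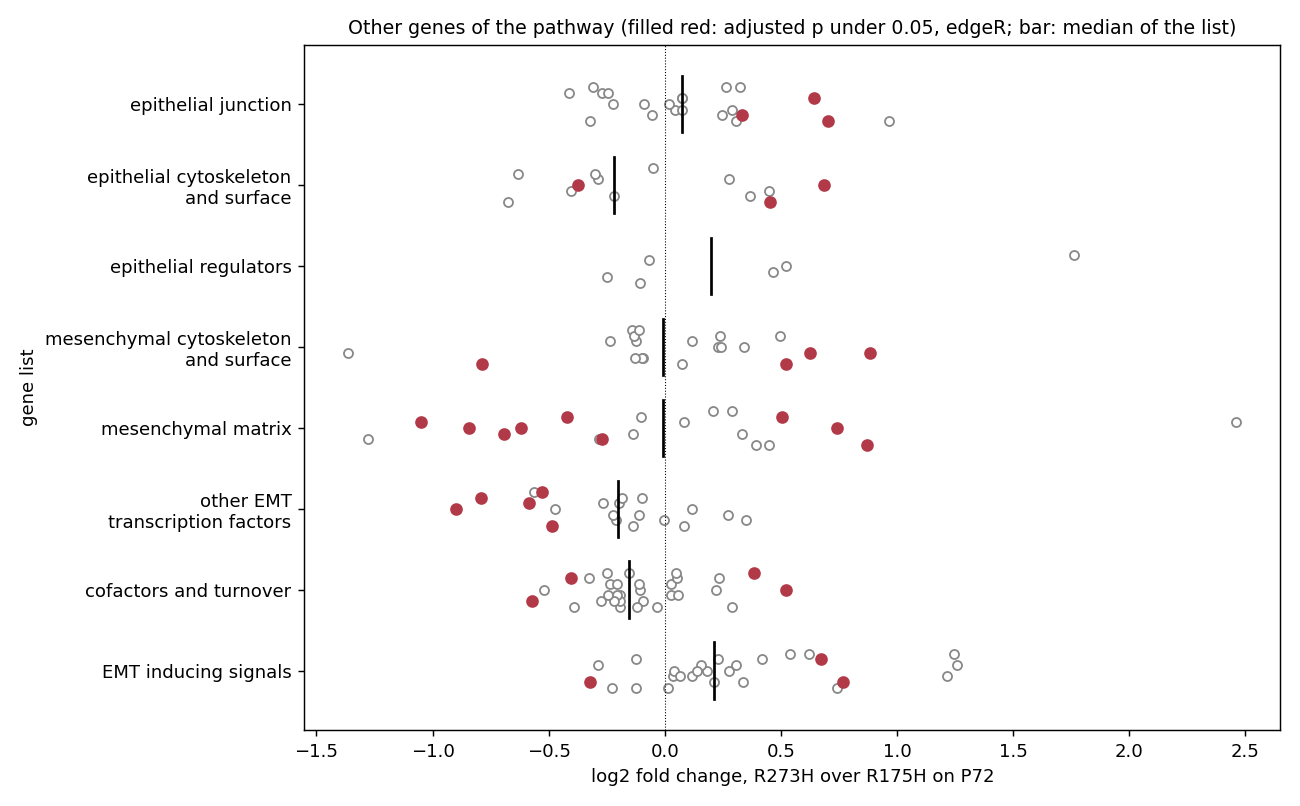
log2 fold change for R273H over R175H on P72 (x axis) of the tested genes of 8 lists of the program (y axis). Each point is 1 gene, filled where the adjusted p was under 0.05 in edgeR, and the bar is the list's median. Called epithelial junction genes lie above 0, called further transcription factors lie below 0, and called mesenchymal genes lie on both sides.

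In the other comparisons few of these genes were called. With R72 on R175H, 1 of 159 was, HMGA1, which fell by 0.47 (SE 0.11, edgeR adjusted p = 0.0282), from a mean of 6761 CPM with P72 to 5185 CPM with R72. DESeq2 called 6 and limma-voom 1. With R72 on R273H edgeR called 0, with 18 at an unadjusted p under 0.05, DESeq2 3 and limma-voom 0. For the hotspot on R72 edgeR called 0, with 13 at an unadjusted p under 0.05, DESeq2 1 and limma-voom 0. For the difference of the codon 72 effects edgeR called 0, with 21 at an unadjusted p under 0.05, DESeq2 3 and limma-voom 0. Over all 16324 genes tested, R72 on R175H had 1.13% called by edgeR and 333 genes called by DESeq2. For R72 on R273H, the hotspot on R72 and the difference, 1265, 754 and 1669 of all genes had an unadjusted p under 0.05. In that order, edgeR called 0%, 0.0429% and 0.0306% of all genes, and DESeq2 called 112, 14 and 138 genes.

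Among genes next to the members, SIGIRR, beside PKP3, averaged 4.23 CPM with R273H P72 and 6.71 CPM with R175H P72 and fell by 1.44 on the log2 scale (SE 0.31, edgeR adjusted p = 0.00348). It also fell by 1.28 with R72 on R175H (SE 0.29, adjusted p = 0.0282), to a mean of 3.75 CPM, and both comparisons share the R175H P72 libraries, the group with its highest mean. HDAC9, beside TWIST1, averaged 31.4 and 45.4 CPM and fell by 0.55 (SE 0.14, adjusted p = 0.00886).

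Markers of other cell types were low. The summed fibroblast list of 10 genes was 2.39 to 3.28 CPM in R175H P72 and 3.97 to 7.98 CPM in R273H P72, with LUM, COL1A2 and POSTN at 0 in all 11 libraries. The leukocyte list of 10 genes summed to 10.48 to 28.3 CPM and 10.3 to 19.98 CPM in the same groups, mostly CD68, with CD3E at 0 in all libraries. The endothelial list of 8 genes summed to 4.17 to 6.12 CPM and 4.28 to 6.02 CPM, with CDH5 and CLDN5 at 0. The hepatocyte and kidney list of 8 genes summed to 5.45 to 8.26 CPM and 3.75 to 4.96 CPM, with ALB, TTR, UMOD and CDH16 at 0, and its only tested gene, PAX8, was called lower with R273H (log2 fold change -0.92). The fibroblast sum, higher in R273H P72, was mostly COL1A1 (mean 3.14 CPM over all libraries), and COL3A1 had 1 count in all. The part of these genes in the results was not tested. The 3 libraries numbered replicate 4 also held counts of B cell genes, and without those libraries VIM (-0.51, adjusted p = 0.00272), CDH2 (0.57, 0.0043), ZEB1 (-0.64, 0.00244) and PKP3 (-0.55, 0.0177) were still called for the hotspot on P72, while TWIST1 was not (-0.59, 0.0532).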

How the data were processed

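The 11 libraries were grouped by hotspot and codon 72 form from their labels. The table deposited by the authors gives estimated counts for each Ensembl gene, all of them whole numbers. The submitters' processing notes name Bowtie2, RSEM 1.2.12 and DESeq2 on hg38. The use of strand in counting could not be taken from the labels or the file. Libraries were single 75 bp reads from a 3′ tag kit, per the labels' protocols.

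edgeR 4.0.16 in R 4.3.3 was used. Its filterByExpr, given the 4 groups, a minimum count of 10 and a minimum total of 15, chose the genes to test. After TMM scaling, a robust quasi-likelihood fit took group and batch over all 11 libraries. CPM are relative to the TMM-scaled library total, and each SE comes from the fold change and the F statistic. Intervals are 1.96 SE to each side. A single library in a group was assumed to vary like the others. The procedure was tested on simulated data. These held no batch difference, so they do not show how well the fit separates hotspot from batch. All pairs of replicates differed beyond sampling noise, with a chi-square of 4.01 to 18.3 over its degrees of freedom, so no library was counted as one deposited more than once. This does not show that libraries came from separate cultures. Batch was called for 1504 genes.

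Named genes are the 10 members, up to 3 called genes per list and comparison (or the one with the smallest p), and the 3 nearest genes of each member that passed the F test. A few genes that meet these rules are not reported here. KRT8 and KRT18, marker genes, and the neighbours SIGIRR and HDAC9 are named besides. The members and lists were chosen with earlier results of these data known. The alternatives tried were scaling by library totals or RLE, no filter, at least 10 CPM in 3 libraries, DESeq2 1.42.0, limma-voom (limma 3.58.1), no batch term, batch b2 alone, a replicate block, a GC correction (a spline of 5 degrees of freedom on the last 500 nt of GENCODE 29 transcripts) and each library left out. Leaving out the replicate 4 libraries together was added after seeing the data. Sequences came from RefSeq tables on GRCh38.p14, which differ from the hg38 annotation in their starts.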

Additional observations from a re-analysis of the deposited data

How the results depend on the processing

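For the hotspot on P72, 2376 genes were called, and 1214 to 2463 with each library left out (lowest without R175H R72 replicate 1, and 1253 without R273H P72 replicate 1). The members called there, 5, became 2 to 5 with each library left out, with 3 without R175H R72 replicate 1 and 2 without R273H P72 replicate 1. In the F test 1747 genes were called, 922 to 2080 with each library left out, and of the members 3, or 1 to 4. The counts with each library left out were 24 to 272 for R72 on R175H (185 with all libraries), 0 to 6 for R72 on R273H (0), 3 to 9 for the hotspot on R72 (7) and 0 to 48 for the difference of the R72 effects (5, highest without R273H P72 replicate 1). In that order of the 4 comparisons, the counts were 564, 137, 16 and 196 with no filter, and 333, 112, 14 and 138 with DESeq2. Without the filter the F test called 2693 genes. The filter at 10 CPM gave 2 and limma-voom 3 for the hotspot on R72. Without the batch term the F test called 1128 genes, R72 on R175H 6, the hotspot on R72 3, the difference 1, and 3 members were called for the hotspot on P72. In batch b2 alone the hotspot on P72 called 866 genes and 1 member, the F test 556 and 0 members (edgeR), and R72 on R273H 1. The GC correction gave 59 for R72 on R175H and 1 for the difference. Without the 3 replicate 4 libraries R72 on R175H called 304, R72 on R273H 6 and the difference 40. With the replicate number as a block, R72 on R175H called 81 genes, R72 on R273H 2, the hotspot on R72 2, the difference 2 and the F test 819, in which CDH2 was lost (adjusted p = 0.0693). TWIST1 was lost for the hotspot on P72 (log2 fold change -0.559, adjusted p = 0.0783), and the block ended no other call of a member. Libraries with the same number correlated at -0.253 to 0.146 in their deviations from group means, and not every pair was over 0.1, so the numbers were not taken as pairs. The 3 replicate 4 pairs were over it, at 0.124 to 0.146. Signs that turned belonged to values that passed no test. CDH2 for R72 on R273H was 0.00133 with library totals, 0.0724 in b2 alone and 0.0763 without R175H R72 replicate 1. PKP3 without the batch term was -0.17 for R72 on R273H and -0.14 for the difference, and with the GC correction 0.106 for R72 on R175H. ZEB1 for R72 on R175H was -0.032 with the GC correction, -0.135 without the replicate 4 libraries, and -0.0938 to 0.121 with each library left out (negative without R175H P72 replicate 4 and, at -0.00447, without R175H R72 replicate 4). VIM for R72 on R175H was 0.0931 without the replicate 4 libraries, and ZEB2 for the hotspot on P72 was -0.0481 to 0.293, negative without R273H P72 replicate 1. The cause of these differences was not tested. Leaving out R273H R72 replicate 3 ends both comparisons that use it and the difference, so these had no such value. Depth limits CDH1, EPCAM, SNAI1 and SNAI2, with at most 50 counts each.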

Other observations

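B cell genes of the leukocyte list had counts in the 3 libraries numbered replicate 4, which belong to different groups and batches. MS4A1, which encodes CD20, was at 3.72 CPM in R175H P72 replicate 4, 1.8 CPM in R175H R72 replicate 4 and 1.9 CPM in R273H P72 replicate 4, and at 0 to 0.235 CPM in the other 8 libraries. CD74, the invariant chain of antigen presentation, was at 6.56, 4.92 and 3.7 CPM in the same order of libraries, against 0 to 0.7 CPM. PTPRC, which encodes the leukocyte antigen CD45, was at 0.709, 0.6 and 0.211 CPM, against 0 to 0.235 CPM, so that R273H P72 replicate 4 was within the range of the others for this gene. CD3E, a T cell gene, had no count in any library. In the same 3 libraries VIM was at 1827, 1270.3 and 893 CPM, the highest value of the R175H P72 group and values inside the range of the other 2 groups.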
